A study of Mus musculus with 7 samples.

Results

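The 10 genes described here encode 8 membrane-bound adenylyl cyclases (Adcy1, Adcy2, Adcy3, Adcy5, Adcy6, Adcy7, Adcy8 and Adcy9) and the stimulatory G protein alpha subunits Gs alpha (Gnas) and Golf (Gnal). They were found by matching these symbols to the Ensembl identifiers of the count files, and each symbol matched 1 of the 55416 identifiers. All 10 passed the filter on low counts and were among the 13152 genes tested. RNA was sequenced from the hippocampus of male CD1 mice, an outbred stock, age-matched with no age stated in the sources used here. Control mice were untreated and gave 3 libraries (replicates 1 to 3). DMSO-treated mice received the vehicle in a volume equal to that of the drug solution and gave 2 libraries (replicates 2 and 3). The drug group received intraperitoneal ONX-0914, which blocks the beta5i subunit of the immunoproteasome, for 2 months in doses of 10 mg/kg given 2 times a week, and gave 2 libraries (replicates 1 and 2). DMSO was injected equally often. The sources do not say which of the treated animals were sequenced or whether each library came from 1 animal, so p-values measure the spread between these libraries.

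Adenylyl cyclases convert ATP to cyclic AMP, the second messenger that activates protein kinase A, the exchange factors of the Epac family and cyclic nucleotide-gated channels. Hormone and neurotransmitter receptors switch them on through Gs alpha or its close relative Golf, and the isoforms differ in what else regulates them. In the hippocampus, the calcium-stimulated isoforms are known to couple synaptic calcium entry to cyclic AMP, which is needed for lasting forms of synaptic potentiation.

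The libraries held 2842675 to 13782270 counts on genes, and ONX-0914 replicate 2 was the deepest, with the next at 3877006. One library stood apart in its regional markers. In ONX-0914 replicate 1, a list of 14 striatal genes summed to 1278 CPM (counts scaled to a common library size), against 181 to 212 CPM in control and 144 CPM in ONX-0914 replicate 2, and all 14 genes lay above every control library. A list of 14 thalamus and midbrain genes summed to 1368 CPM in the same library, against 127 to 159 CPM in control and 124 CPM in ONX-0914 replicate 2, with 13 of the 14 genes above every control library. None of the striatal or thalamic genes was at 0 in that library. The share of all tested genes above every control library in a single library was not counted, here or for the cell type lists below. Its hippocampal lists were low, with 162 CPM for dentate gyrus (424 to 534 in control), 228 CPM for CA1 (661 to 762) and 109 CPM for CA3 (280 to 301). ONX-0914 replicate 2 had 443, 686 and 235 CPM for these 3 lists. The CA3 value of replicate 2 lay below control. In that list Iyd, Homer3, Npy2r (17.2 CPM, 46.6 to 51.8 in control) and Prss35 lay below every control library. Bok lay above (55.4 CPM, 44.2 to 46.5 in control). The CA1 value of replicate 2 lay inside the control range. Its genes Fibcd1, Pou3f1, Lefty1 and Gpr161 lay below every control library, while Wfs1 (190 CPM, 97.6 to 126 in control) and Mpped1 (230 CPM, 109 to 124) lay above. A list of 10 neocortical genes summed to 421 CPM in replicate 2, against 242 CPM in replicate 1 and a control range of 274 to 360 CPM, with 8 genes of replicate 2 above every control library. DMSO replicates 2 and 3 had 471 and 376 CPM for dentate gyrus, 655 and 734 CPM for CA1, and 289 and 287 CPM for CA3. DMSO replicate 3 thus lay below the control range for dentate gyrus, and DMSO replicate 2 for CA1. ONX-0914 replicate 2 lay below it for CA3 only. The label hippocampus was least well met in ONX-0914 replicate 1, which lay below every other library for all 3 lists. The part of these regional differences in the values below was not tested, and results for ONX-0914 are given for each library and without each library in turn.

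**Figure D1:**
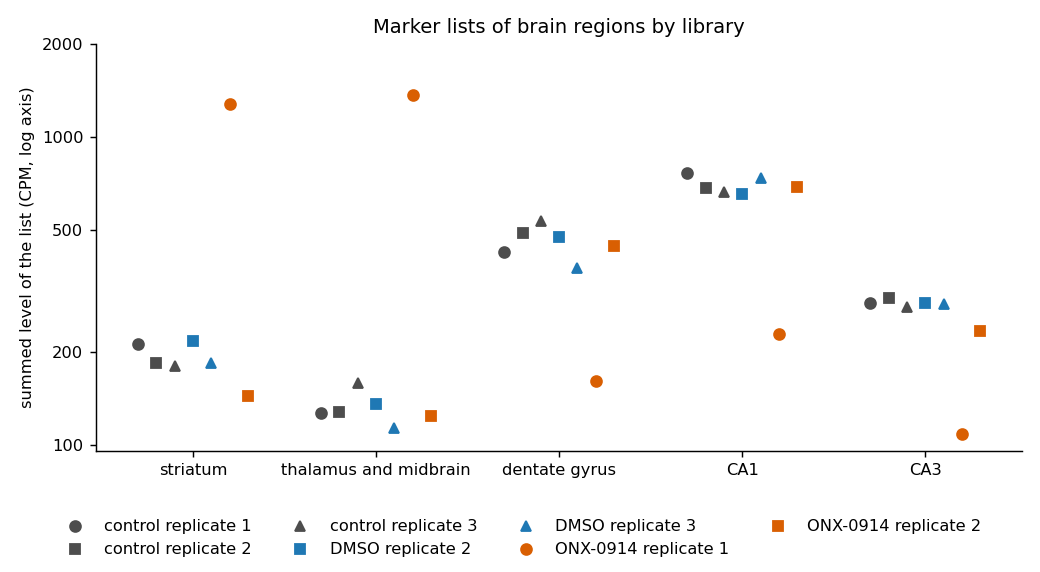
Summed level of 5 lists of regional marker genes in each of the 7 libraries (vertical log axis, CPM). Colours mark control, DMSO and ONX-0914 libraries and shapes mark replicate numbers. ONX-0914 replicate 1 lies above every other library for striatum (1278 CPM) and for thalamus and midbrain (1368 CPM) and below every other library for dentate gyrus, CA1 and CA3.

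None of the 10 genes passed the test (edgeR quasi-likelihood, Benjamini–Hochberg FDR threshold 0.05) in ONX-0914 against control, where 0.114% of all tested genes did. In DMSO against control 0 of 10 passed (background 0.0152%), and in ONX-0914 against DMSO 0 of 10 passed (background 0.0456%). At an unadjusted p under 0.05, 2 members were higher and 1 lower in ONX-0914 than in control (10.6% and 8.04% of all tested genes), 0 were higher and 0 lower in DMSO than in control (1.48% and 1.17%), and 2 were higher and 1 lower in ONX-0914 than in DMSO (8.07% and 6.65%). In ONX-0914 against control, the libraries of the groups did not overlap for 1 member in the higher direction (background 16.9%) and for 2 in the lower direction (background 16.3%). The median Log2FC of the members was 0.12, beside 0.05 for all tested genes. In bulk tissue, fewer cells of a type and less RNA per cell cannot be told apart.

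**Figure D2:**
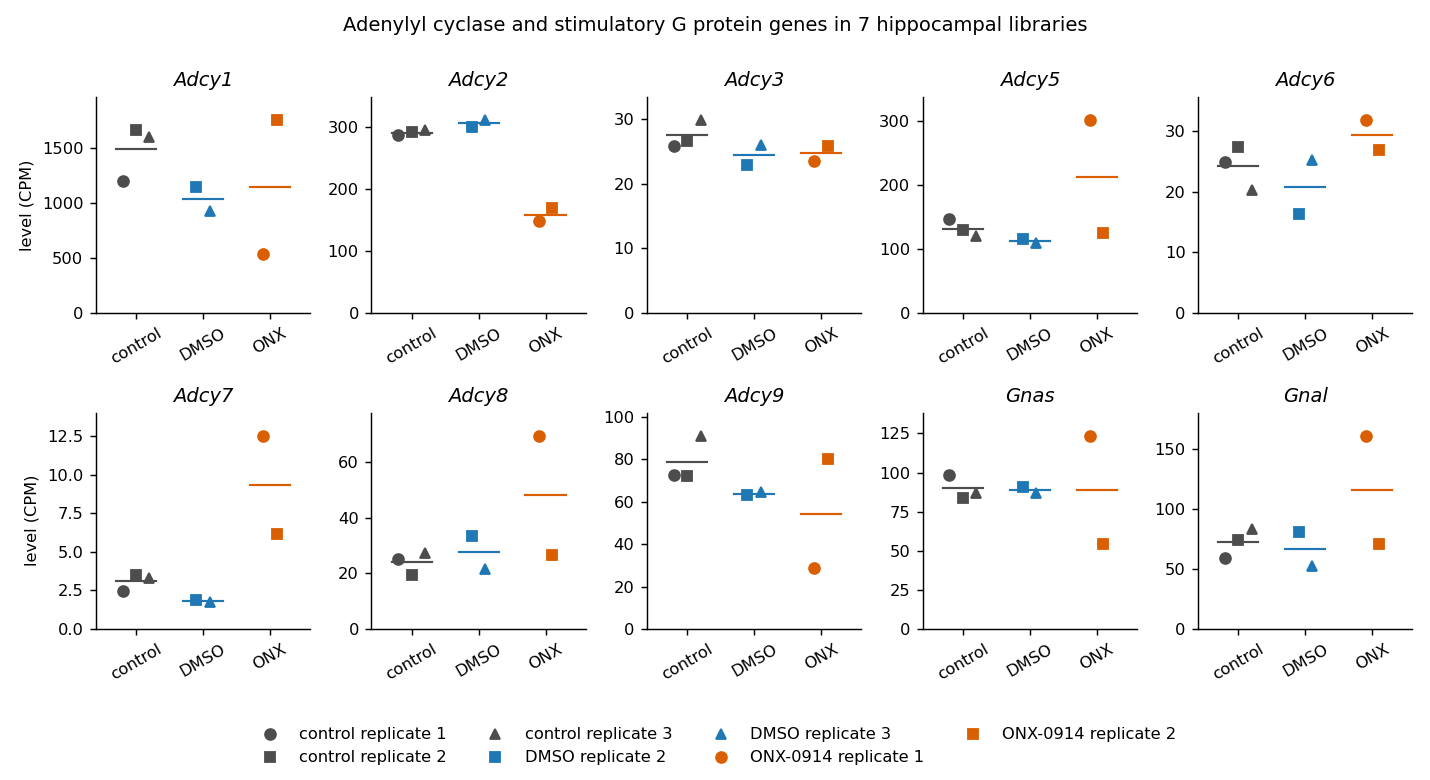
Level of each gene (CPM, linear axes from 0, a separate scale per gene) in the 3 control, 2 DMSO and 2 ONX-0914 libraries, with the group mean as a horizontal line. The ONX-0914 libraries lie close together and below the others for Adcy2, above the others for Adcy7, and far apart for Adcy1, Adcy5, Adcy8, Adcy9, Gnas and Gnal.

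Relative to exon length, Adcy1 was the most abundant member in control hippocampus, with 119 ± 19.9 CPM per kb (SD, n = 3). Adcy2 followed with 69.1 ± 0.878 CPM per kb, and these isoforms did not overlap with each other or with any other member. Adcy5 (18.4 ± 1.84 CPM per kb) and Adcy9 (15.1 ± 2.08) came next and overlapped. The G protein genes were lower, with Gnas at 8.03 ± 0.704 and Gnal at 6.46 ± 1.11 CPM per kb, and did not overlap. Adcy3 had 4.398 ± 0.341 CPM per kb, Adcy6 3.57 ± 0.532 and Adcy8 2.93 ± 0.503, the last pair overlapping, and Adcy7 was lowest with 0.461 ± 0.0813. The exon lengths came from all annotated exons of a gene, so an isoform with a shorter transcript is placed too low on this scale. This bears most on Gnas, a complex imprinted gene with several alternative first exons (11186 bases in all), whose exons share 988 bases with the antisense gene Nespas and 1469 bases with Gm20721, both with 0 counts in all 7 libraries. Whether reads of Gnas were lost among the ambiguous reads was not tested.

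The calcium/calmodulin-stimulated isoforms are Adcy1, Adcy3 and Adcy8. Adcy1 (ENSMUSG00000020431), an isoform known for its role in hippocampal plasticity, had 1199, 1658 and 1597 CPM in control, 1145 and 924 CPM in DMSO, and in ONX-0914 532 CPM (replicate 1) and 1751 CPM (replicate 2). The ONX-0914 libraries lay on either side of all the others, and both DMSO libraries lay below all control libraries. The Log2FC of ONX-0914 against control was −0.38 ± 0.441 (SE, FDR = 0.658, edgeR). Leaving out ONX-0914 replicate 2 gave −1.48, and leaving out replicate 1 gave 0.24. For DMSO against control the Log2FC was −0.52 ± 0.444 (FDR = 0.9999, edgeR).

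Adcy8 (ENSMUSG00000022376), the other isoform known to act in calcium-driven synaptic cyclic AMP, had 25.2, 19.3 and 27.2 CPM in control and 33.4 and 21.7 CPM in DMSO. After ONX-0914, replicate 1 had 69.4 CPM and replicate 2 had 26.7 CPM. Only ONX-0914 replicate 1 lay above the range of the other libraries. The Log2FC against control was 0.99 ± 0.393 (FDR = 0.237, edgeR), and it was 1.54 with ONX-0914 replicate 1 alone and 0.17 with replicate 2 alone.

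Adcy3 (ENSMUSG00000020654), best known from olfactory cilia and from neuronal primary cilia, varied least. It had 25.9, 26.6 and 29.9 CPM in control, 23.0 and 25.9 CPM in DMSO, and 23.6 and 25.9 CPM in ONX-0914. Every control library exceeded both ONX-0914 libraries, but by little, with a Log2FC of −0.15 ± 0.188 (FDR = 0.684, edgeR). The 4 olfactory neuron markers summed to at most 4.61 CPM in any library. The exons of Adcy3 share 1380 bases with the gene Cenpo on the opposite strand, which had 84 counts in all 7 libraries together.

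The isoforms stimulated by G protein beta-gamma subunits together with Gs alpha are Adcy2, Adcy4 and Adcy7. Adcy2 and Adcy7 were the members whose ONX-0914 libraries were set apart from all others, in opposite directions, and the bases just before an annotated start site of each are shown for that reason. The sequences are RefSeq promoter windows of build GRCm38.p6, the 100 bases upstream of the start, 5′ to 3′ on the gene's strand. Capitals mark TGACG or its reverse complement CGTCA, the core of the cyclic AMP response element to which CREB binds.
Adcy2 (chr13:68999542-68999641, minus strand): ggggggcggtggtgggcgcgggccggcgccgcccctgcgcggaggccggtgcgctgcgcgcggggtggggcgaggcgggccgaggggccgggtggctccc
Adcy7 (chr8:88282892-88282991, plus strand): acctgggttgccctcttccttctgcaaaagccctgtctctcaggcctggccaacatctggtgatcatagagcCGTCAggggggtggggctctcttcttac

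The Adcy2 stretch was 89% G and C, and the Adcy7 stretch 58%. Adcy7 has 3 annotated starts in RefSeq, and the stretch shown, before the first, was the only one of the 3 that held the core. The bases just after the start were found in a GENCODE transcript for Adcy2, but in no GENCODE transcript of Adcy7 for any of its 3 starts. Windows of 300 bases (250 before and 50 after the start) were held for 7 of the 10 members, 13 windows in all. The full element TGACGTCA stood in 0 of these 13 windows and in 1.79% of 32851 windows of all genes. The core TGACG, on either strand and counted also within the full element, stood in 5 of the 13 and in 20.8% of all windows. Those 5 belonged to Adcy7, to Adcy9 and, 3 times, to Gnas, where 2 of them are the same letters in overlapping windows.

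Adcy2 (ENSMUSG00000021536) was the member with the smallest p-value. It had 287, 291 and 295 CPM in control, 301 and 312 CPM in DMSO, and 148 and 170 CPM in ONX-0914. Both ONX-0914 libraries lay far below a narrow range formed by the other 5, and both DMSO libraries lay slightly above all control libraries. The exons of Adcy2 share 189 bases with Gm35161 on the opposite strand, which had 32 counts in all 7 libraries together. The Log2FC of ONX-0914 was −0.87 ± 0.160 against control (FDR = 0.0742, edgeR) and −0.94 ± 0.172 against DMSO (FDR = 0.108, edgeR), so neither passed the threshold. At an FDR under 0.1, Adcy2 was 1 of 10 members in ONX-0914 against control, beside 1.48% of all tested genes, and in ONX-0914 against DMSO 0 of 10 members did so (background 0.297%). The difference was present in each ONX-0914 library. Without replicate 1 the Log2FC against control was −0.78 and without replicate 2 it was −0.97. In ONX-0914 against DMSO the same omissions gave −0.85 and −1.05. In those fits the single ONX-0914 library is assumed to vary like the other groups, and 51.3% (without replicate 1) and 18.8% (without replicate 2) of all tested genes passed against control, and 46.4% and 16.8% against DMSO.

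Alternative models moved Adcy2 over the threshold in part. Against control it passed with DESeq2 (Log2FC −0.88, adjusted p = 0.00206, 2.95% of genes called), without the filter on low counts (FDR = 0.0350, 2.15% called) and against the 5 other libraries as 1 group (Log2FC −0.90, FDR = 0.0213, 2.61% called). Against DMSO it passed with DESeq2 (Log2FC −0.96, adjusted p = 0.00310, 1.86% called). Without the filter, Adcy7 passed in its place (1.11% called). The FDR of Adcy2 against control over the alternatives other than leaving out a library reached 0.265. Without control replicate 1, 2 or 3 it was 0.311, 0.379 and 0.318 (edgeR), at a Log2FC of −0.88, −0.87 and −0.86. Summed astrocyte markers were also lower in ONX-0914 (4419 and 4578 CPM) than in control (5215 to 5576 CPM) or DMSO (5575 and 5304 CPM). Of the 8 genes, 4 and 1 lay above every control library in ONX-0914 and 3 and 2 in DMSO, with none at 0. The part of astrocytes in the Adcy2 level was not tested.

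Adcy7 (ENSMUSG00000031659), an isoform known from immune cells and microglia as well as neurons, was detected with few counts. It had 2.48, 3.53 and 3.29 CPM in control (7, 13 and 12 counts), 1.87 and 1.78 CPM in DMSO (7 and 5 counts), and 12.5 and 6.18 CPM in ONX-0914 (50 and 94 counts). Both ONX-0914 libraries were above all others, and both DMSO libraries were below all control libraries. The exact 95% Poisson interval was 6.92 to 22.2 for the 13 counts of control replicate 2 and 37.1 to 65.9 for the 50 counts of ONX-0914 replicate 1, and covers counting error only.

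The Log2FC of Adcy7 was 1.49 ± 0.416 against control (FDR = 0.146, edgeR) and 2.26 ± 0.524 against DMSO (FDR = 0.159, edgeR). Without ONX-0914 replicate 1, the library rich in striatal and thalamic markers, it was 0.97 against control, and without replicate 2 it was 1.98. Without control replicate 1, 2 or 3 it was 1.39, 1.62 and 1.56 (FDR = 0.384, 0.411 and 0.402, edgeR). The 10 microglial markers summed to 303 to 332 CPM in control, 350 and 407 CPM in DMSO, and 368 and 521 CPM in ONX-0914 replicates 1 and 2. In each ONX-0914 library 7 of the 10 genes lay above every control library. In the DMSO libraries 5 (replicate 2) and 8 (replicate 3) did so, and none was at 0. The part of microglia in the Adcy7 level was not tested.

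Adcy4 (ENSMUSG00000022220), the relative of Adcy2 and Adcy7 known from blood vessels, was not among the 10 genes but was tested. It had 0.710, 1.36 and 0.823 CPM in control, 1.87 and 1.42 CPM in DMSO, and 4.26 and 3.36 CPM in ONX-0914, from 2 to 51 counts. The Log2FC against control was 1.88 ± 0.494 (FDR = 0.134, edgeR). The 8 endothelial markers summed to 156 to 177 CPM in control, 161 and 208 CPM in DMSO, and 276 and 291 CPM in ONX-0914. Above every control library lay 7 and 8 of these genes in ONX-0914 and 0 and 6 in DMSO, with none at 0. The part of endothelium in the Adcy4 level was not tested. Adcy10, the soluble bicarbonate-sensitive cyclase, did not pass the filter and had 0 or 1 counts in each control and DMSO library. It had 2 and 18 counts in ONX-0914 replicates 1 and 2, of which replicate 2 was the deepest library. Its level there was 0.501 and 1.18 CPM, against at most 0.274 CPM in control and 0.355 CPM in DMSO.

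The calcium-inhibited isoforms are Adcy5 and Adcy6. Adcy5 (ENSMUSG00000022840), the main cyclase of striatal projection neurons, had 147, 129 and 121 CPM in control, 116 and 110 CPM in DMSO, and 302 and 125 CPM in ONX-0914 replicates 1 and 2. ONX-0914 replicate 1 stood above all other libraries and replicate 2 lay inside the control range. The Log2FC was 0.69 ± 0.322 against control (FDR = 0.291, edgeR) and 0.91 ± 0.360 against DMSO (FDR = 0.303, edgeR). Without ONX-0914 replicate 1 the value against control was −0.08, and without replicate 2 it was 1.197.

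Adcy6 (ENSMUSG00000022994), a widely expressed isoform, had 24.8, 27.4 and 20.3 CPM in control, 16.3 and 25.2 CPM in DMSO, and 31.8 and 26.9 CPM in ONX-0914. The ONX-0914 libraries overlapped with control and lay above both DMSO libraries. The Log2FC was 0.27 ± 0.246 against control (FDR = 0.560, edgeR) and 0.50 ± 0.276 against DMSO (FDR = 0.404, edgeR).

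Adcy9 (ENSMUSG00000005580), the isoform that responds poorly to forskolin, had 72.4, 72.2 and 91.0 CPM in control, 63.3 and 64.3 CPM in DMSO, and 28.8 and 79.9 CPM in ONX-0914 replicates 1 and 2. Replicate 1 was below all other libraries and replicate 2 was inside the control range, while both DMSO libraries were below all control libraries. The Log2FC of ONX-0914 against control was −0.51 ± 0.367 (FDR = 0.467, edgeR), and it was −1.45 without replicate 2 and 0.02 without replicate 1.

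The G protein genes diverged between the ONX-0914 libraries as well. Gnas (ENSMUSG00000027523), which encodes the Gs alpha found in nearly all cells, had 98.7, 83.6 and 87.2 CPM in control, 90.8 and 86.7 CPM in DMSO, and 124 and 54.1 CPM in ONX-0914 replicates 1 and 2. One ONX-0914 library was above and the other below all 5 others, and the Log2FC against control was −0.03 ± 0.310 (FDR = 0.970, edgeR). It was 0.46 without replicate 2 and −0.73 without replicate 1. Since scaling by total counts alone gave 0.09, no direction is given for Gnas.

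Gnal (ENSMUSG00000024524), whose Golf protein carries odorant, dopamine and adenosine receptor signals in the olfactory epithelium and striatum, had 58.9, 74.4 and 83.4 CPM in control and 80.7 and 52.6 CPM in DMSO. After ONX-0914, replicate 1 had 161 CPM and replicate 2 had 70.5 CPM. Replicate 1 was above all others and replicate 2 inside the control range. The Log2FC against control was 0.67 ± 0.347 (FDR = 0.330, edgeR), and −0.04 without ONX-0914 replicate 1. The exons of Gnal share 852 bases with Mppe1 on the opposite strand, which had 567 counts in all 7 libraries together. The part of this overlap in the Gnal level was not tested. The ratio of Gnal to Gnas counts, a quantity chosen after the values were seen and not tested, was 0.597, 0.890 and 0.956 in control, 0.888 and 0.607 in DMSO, and 1.30 in each ONX-0914 library, where both genes were high in replicate 1 and Gnas was low in replicate 2.

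**Figure D3:**
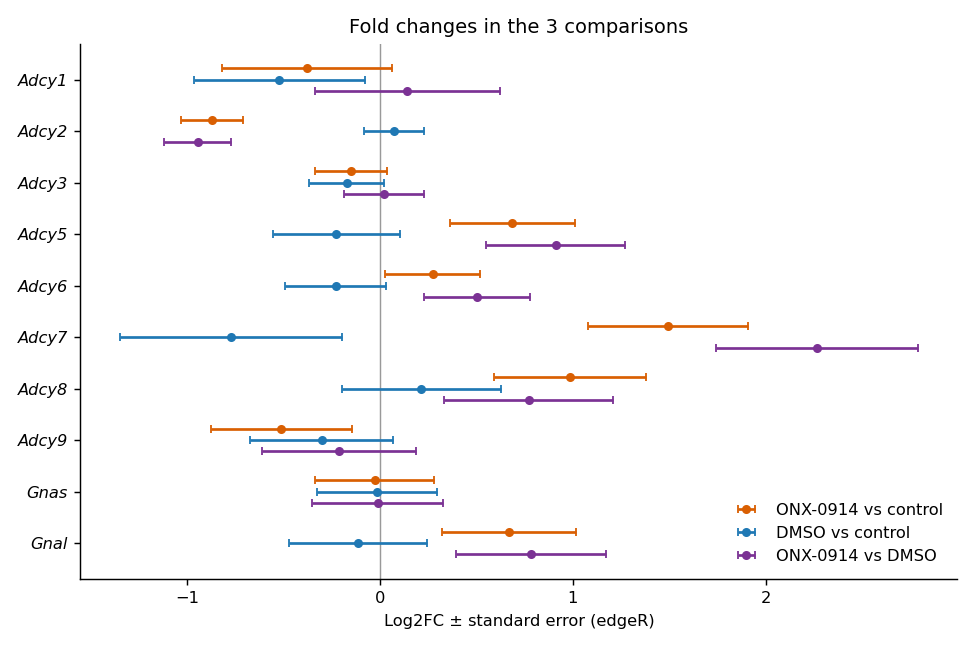
Log2FC with its standard error (horizontal axis, edgeR) of the 10 genes in ONX-0914 against control, DMSO against control and ONX-0914 against DMSO. Adcy2 has the narrowest error among the larger differences (−0.87 ± 0.160 against control) and Adcy7 the largest value (2.26 ± 0.524 against DMSO), and no value passed the FDR threshold.

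The ONX-0914 libraries differed from each other by over 1 log2 unit for Adcy1, Adcy5, Adcy8, Adcy9, Gnas and Gnal, 6 of 10 members, as they did for 25.2% of all tested genes, while no member spanned 1 log2 unit among the control libraries. The log2 CPM of replicate 1 minus that of replicate 2 was −1.72 for Adcy1 and −1.46 for Adcy9, and 1.36 for Adcy8, 1.27 for Adcy5, 1.19 for Gnas and 1.18 for Gnal. For 5 members (Adcy1, Adcy5, Adcy9, Gnas and Gnal) the ONX-0914 libraries lay on opposite sides of the control mean. Among the defining striatal genes, Adora2a, the adenosine receptor that signals through Golf and Adcy5, stood at 52.6 CPM in replicate 1 but at 2.04 CPM in replicate 2 of ONX-0914, against 1.06 to 2.17 CPM in control.

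**Figure D4:**
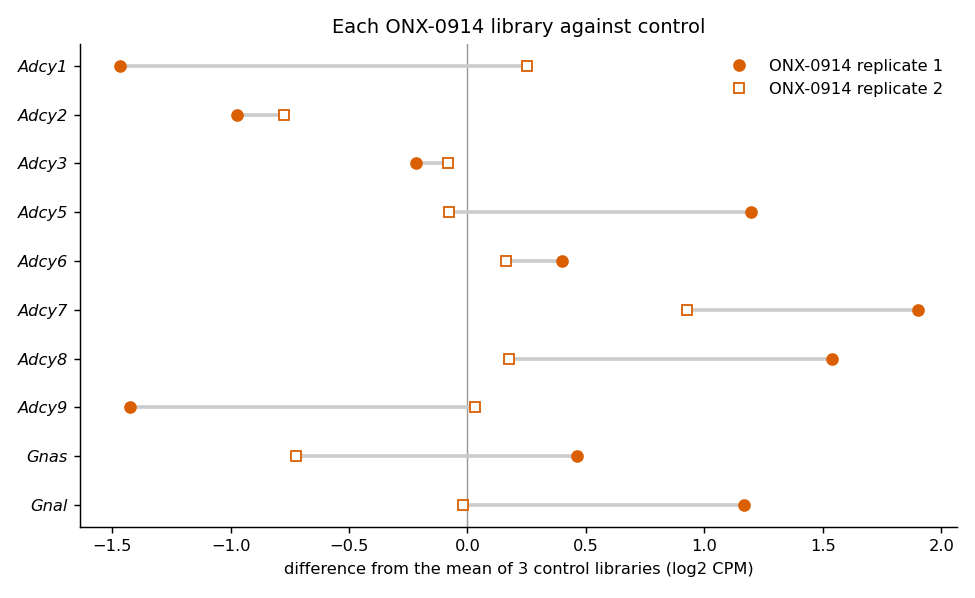
Difference of each ONX-0914 library from the mean of the 3 control libraries (horizontal axis, log2 CPM) for the 10 genes, with filled circles for replicate 1, open squares for replicate 2 and a grey line joining them. Both libraries lie to the left of 0 for Adcy2 (−0.97 and −0.77) and to the right for Adcy7 (1.90 and 0.93), and they lie on opposite sides for 5 genes.

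The make-up of the cyclase family differed between these libraries too. Of the summed level of the 8 cyclase genes per kb, Adcy1 made up 50.7 ± 4.45% in control (SD, n = 3), and 29.5% and 62.1% in ONX-0914 replicates 1 and 2. Adcy2 made up 29.8 ± 2.34% in control, 35.4% and 39.7% in DMSO, and 24.4% and 17.9% in ONX-0914, and both ONX-0914 values lay below all others. Adcy5 made up 8.00 ± 1.52% in control, 29.2% in ONX-0914 replicate 1 and 7.72% in replicate 2. Adcy7 made up at most 0.214% in control, and 1.29% and 0.408% in ONX-0914. The summed level was 210 to 245 CPM per kb in control, 202 and 186 in DMSO, and 144 and 225 in ONX-0914. These shares are not independent of each other and were not tested.

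**Figure D5:**
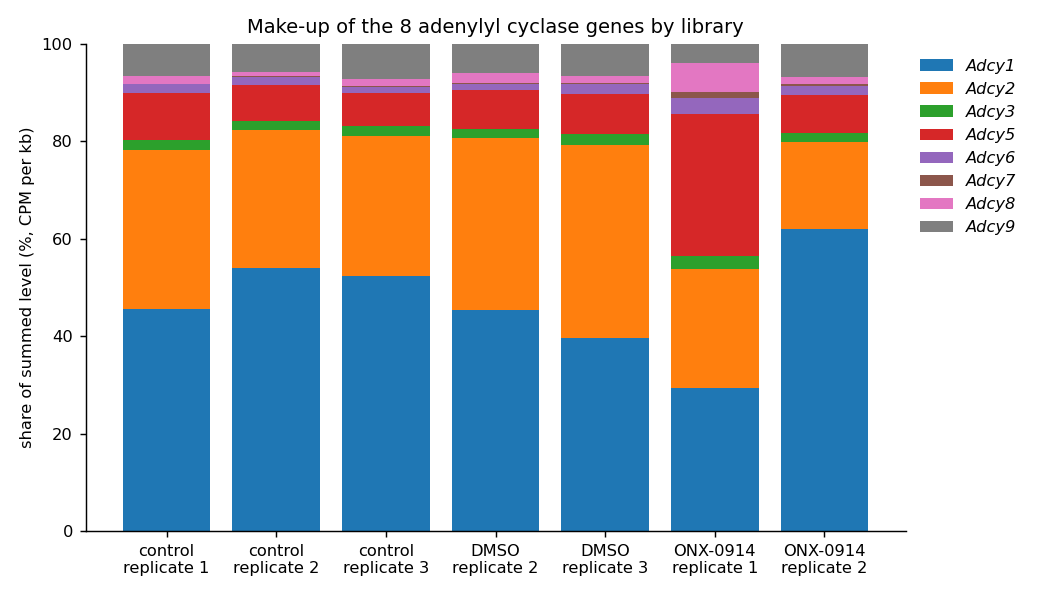
Share of each isoform in the summed level of the 8 adenylyl cyclase genes (vertical axis, percent of CPM per kb) in each library. Adcy1 and Adcy2 hold the largest shares in 6 libraries, while in ONX-0914 replicate 1 Adcy5 (29.2%) exceeds Adcy2 (24.4%) and lies close to Adcy1 (29.5%).

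DMSO against control compared vehicle-injected with untreated mice, so the DMSO and the injections cannot be told apart. Of the 10 members, 8 had a negative Log2FC and 2 a positive one, with a median of −0.20 beside −0.0032 for all tested genes. Both DMSO libraries lay below all control libraries for 4 members, Adcy1, Adcy5, Adcy7 and Adcy9 (background 15%), and above them for Adcy2 (background 15.7%). The Log2FC ranged from −0.77 ± 0.575 for Adcy7 to 0.22 ± 0.410 for Adcy8, and no member reached an unadjusted p under 0.05. In a fit of control and DMSO alone, Adcy1 passed (Log2FC −0.52, FDR = 0.0307, edgeR, 1.14% of genes called), as it did without either ONX-0914 library (1.1% called without replicate 1 and 1.13% without replicate 2). ONX-0914 against DMSO shares its ONX-0914 libraries with the comparison above, and its non-overlapping members were Adcy5, Adcy6 and Adcy7 in the higher direction (background 20.8%) and Adcy2 in the lower direction (background 19.7%).

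For 8 members whose level spanned over 1 log2 unit across the 7 libraries, the 3 genes with the most similar profile were sought among 9507 genes with a mean of at least 10 CPM, by the root-mean-square (RMS) difference of log2 CPM from the control mean over the 7 libraries. The nearest to Adcy2 were Phyhip (RMS 0.0845), Pygo1 (0.0902) and Jph4 (0.0907). Phyhip had 892 CPM as the control mean and 455 and 545 CPM in the ONX-0914 libraries. The nearest to Adcy7 were Grip2 (RMS 0.194), Slc9a5 (0.221) and Rgs6 (0.252), at a greater distance.

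The nearest to Adcy1 were Ephb2 (RMS 0.146), Fam135b (0.157) and Dgkh (0.167), and to Adcy9 Crhbp (0.102), Camkk1 (0.112) and Eya1 (0.112). Adcy5 was nearest to Kcnh2 (RMS 0.0895), Peg3 (0.122) and Mtus1 (0.133), and Adcy8 to Cdh18 (0.145), Kctd9 (0.169) and Inpp4b (0.177). Gnas was nearest to Dynll2 (RMS 0.0507), Cldnd1 (0.0647) and Tmem35a (0.0703). Gnal was nearest to Pde1b (RMS 0.120), Klhl13 (0.123) and Cacng4 (0.151), and Pde1b, a calcium-stimulated phosphodiesterase, had 111 CPM as the control mean and 262 and 124 CPM in the ONX-0914 libraries. The points share their libraries, and genes that differ between the ONX-0914 libraries are brought close by that difference alone.

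The rest of the pathway was described by a list of 91 genes, from receptors to CREB cofactors, of which 85 were tested. None passed the FDR threshold of 0.05 in any of the 3 comparisons with edgeR. In ONX-0914 against control, 49 had a positive and 36 a negative Log2FC, 13 were higher and 10 lower at an unadjusted p under 0.05 (10.6% and 8.04% of all tested genes), and the groups did not overlap for 17 in each direction (16.9% and 16.3%). The median Log2FC was 0.18. In DMSO against control, 0 were higher and 2 lower at an unadjusted p under 0.05 (background 1.48% and 1.17%), and in ONX-0914 against DMSO 16 were higher and 8 lower (background 8.07% and 6.65%).

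Of the 15 tested receptors that couple to Gs, 10 had a positive and 5 a negative Log2FC in ONX-0914 against control, with 2 higher and 2 lower at an unadjusted p under 0.05 (background 10.6% and 8.04%). The smallest p among them was that of Glp1r, the receptor for glucagon-like peptide 1, with 2.84, 7.06 and 5.76 CPM in control, 0.801 and 0.355 CPM in DMSO, and 2.51 and 0.724 CPM in ONX-0914. All treated libraries of either kind lay below control, though 2.51 CPM in ONX-0914 replicate 1 was close to 2.84 CPM in control replicate 1. Few counts lie behind these levels, since 0.355 CPM is 1 count in DMSO replicate 3. The Log2FC against control was −2.08 ± 0.618 for ONX-0914 (FDR = 0.157, edgeR) and −3.08 ± 0.843 for DMSO (FDR = 0.9999, edgeR).

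Among G protein subunits and their regulators, all 5 inhibitory alpha subunits had a negative Log2FC in ONX-0914 against control, 1 of them at an unadjusted p under 0.05 (background 8.04%). That gene, Gnai1, which inhibits the calcium-inhibited and several other cyclases, had 293 to 326 CPM in control and 254 and 178 CPM in ONX-0914 (Log2FC −0.51 ± 0.197, FDR = 0.230, edgeR). Of 11 beta and gamma subunits, 9 had a positive Log2FC, but the smallest p was that of Gng2, a common gamma subunit, which had a negative Log2FC. Its levels were 272, 357 and 332 CPM in control, 302 and 244 CPM in DMSO, and 166 and 136 CPM in ONX-0914 (Log2FC −1.09 ± 0.205, FDR = 0.0742, edgeR). Both ONX-0914 libraries were below all others.

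Of 2 genes for chaperones and exchange factors of alpha subunits, 1 had a positive and 1 a negative Log2FC in ONX-0914 against control. The positive one, with the smaller p, was Ric8b, the chaperone that folds Gs alpha and Golf. Ric8b had 25.9, 24.97 and 27.7 CPM in control, 32.1 and 30.9 CPM in DMSO, and 49.1 and 43.4 CPM in ONX-0914. All libraries of ONX-0914 were above those of DMSO, and these above control (Log2FC of ONX-0914 against control 0.82 ± 0.173, FDR = 0.0971, edgeR; of DMSO against control 0.27 ± 0.179, FDR = 0.9999).

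Among the 9 tested genes of protein kinase A subunits and inhibitor peptides, 7 had a positive Log2FC in ONX-0914 against control, 2 of them at an unadjusted p under 0.05 (background 10.6%). Prkar2b, a regulatory subunit abundant in neurons, had 22.4, 21.2 and 22.8 CPM in control, 24.0 and 20.6 CPM in DMSO, and 45.6 and 41.6 CPM in ONX-0914. The ONX-0914 libraries lay above all others and the ONX-0914 replicates close together (Log2FC 0.98 ± 0.180, FDR = 0.0742, edgeR). Adcy2, Gng2 and Prkar2b thus shared the smallest FDR of the pathway in this comparison, 0.0742, without passing.

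Of 9 A-kinase anchors, 8 had a negative Log2FC in ONX-0914 against control, 3 of them at an unadjusted p under 0.05 (background 8.04%). In DMSO against control 7 of the 9 were negative, with a median of −0.24 beside −0.22 for ONX-0914 against control, and in ONX-0914 against DMSO 4 were positive and 5 negative, with 0 at an unadjusted p under 0.05. The smallest p against control was that of Akap5, a postsynaptic anchor, with 108 ± 7.37 CPM in control (SD, n = 3), 83.3 and 94.9 CPM in DMSO, and 82.7 and 61.3 CPM in ONX-0914. The libraries of both treatments lay below all control libraries, with a Log2FC against control of −0.60 ± 0.189 for ONX-0914 (FDR = 0.172, edgeR) and −0.28 ± 0.188 for DMSO (FDR = 0.9999, edgeR), and −0.31 ± 0.205 for ONX-0914 against DMSO (FDR = 0.473, edgeR). Of 15 tested phosphodiesterases, which break down cyclic AMP, 9 had a positive and 6 a negative Log2FC. Pde11a had 22.01, 15.5 and 13.99 CPM in control, 13.1 and 12.4 CPM in DMSO, and 7.27 and 3.09 CPM in ONX-0914 (Log2FC −1.86 ± 0.403, FDR = 0.103, edgeR), with all ONX-0914 libraries below all others.

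Of 8 other effectors of cyclic AMP, 6 had a positive Log2FC. Among them Hcn2, a channel opened by cyclic AMP and hyperpolarization, had 135 ± 6.67 CPM in control and 196 and 188 CPM in ONX-0914 (Log2FC 0.51 ± 0.150, FDR = 0.154, edgeR). The CREB family and its cofactors were split in ONX-0914 against control, with 5 of 10 in each direction, a median Log2FC of 0.0022 and 0 at an unadjusted p under 0.05, while in ONX-0914 against DMSO 1 was higher and 3 were lower at that level (background 8.07% and 6.65%). The smallest p against control was that of the coactivator Ep300 (Log2FC 0.32 ± 0.212, FDR = 0.427, edgeR).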

How the data were processed

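The authors deposited raw counts of reads per gene, without normalization, for each of 7 hippocampal libraries (directional kit, single-end reads). Per the submitters' processing notes, Trimmomatic 0.39, STAR 2.7.3a and featureCounts 2.00 were used with GRCm39. The strand setting is not given in the sources used here. Of the reads, 89.6% to 91.4% were assigned to genes, 4.75% to 6.49% lay on no gene and 3.75% to 3.92% were ambiguous. Unassigned reads were left out. Symbols and exon lengths came from GENCODE M21.

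Counts were analysed with R 4.3.3 and edgeR 4.0.16 (filterByExpr, TMM, 1 mean per group over all 7 libraries, quasi-likelihood F test, Benjamini–Hochberg over 13152 genes, threshold 0.05). Log2FC used a prior count of 0.125. CPM used TMM-scaled library sizes. DESeq2 1.42.0, limma voom (limma 3.58.1), other scalings, filters and estimates, a replicate block and leaving out each library were alternatives. Scripts were tested on simulated data.

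Members and gene lists were chosen with earlier results of these data known. Named were all members, Adcy4, Adcy10, any pathway gene that passed, the gene of smallest p in each list, and the 3 most similar genes per member that spanned over 1 log2 unit. No batch labels were given.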

Additional observations from a re-analysis of the deposited data

Results flagged for a closer look

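In Adcy2, both DMSO libraries exceeded every control library, and every control library exceeded both ONX-0914 libraries. The Log2FC of ONX-0914 against DMSO, which is the difference between the effects of the 2 treatments, was −0.94 (FDR = 0.108, edgeR) and did not pass the threshold.

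In Adcy7, the order was the reverse, with DMSO lowest, control between and ONX-0914 highest in every library, at 5 to 94 counts per library. The difference between the treatments was 2.26 (FDR = 0.159, edgeR) and did not pass the threshold either. Adcy2 and Adcy7 were the members with this arrangement. The share of all tested genes with it was not counted. Each side alone occurred in 15% (lower) and 15.7% (higher) of them for DMSO against control. For ONX-0914 against control it occurred in 16.3% (lower) and 16.9% (higher).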

How the results depend on the processing

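The number of members that passed, 0 in each comparison with edgeR, depended on the setting. In ONX-0914 against control it was 1 with DESeq2 (Adcy2), 1 without the filter on low counts (Adcy2), 2 against the 5 other libraries as 1 group (Adcy2 and Adcy7), and 0 to 8 on leaving out a library: 3 without ONX-0914 replicate 1 (Adcy2, Adcy7 and Gnas) and 8 without replicate 2. In ONX-0914 against DMSO it was 1 with DESeq2 (Adcy2, with the adjusted p of Adcy7 not given by the tool), 1 without the filter (Adcy7, FDR = 0.0314) and 0 to 8 on leaving out a library. In DMSO against control it was 1 in a fit of those groups alone (Adcy1) and 0 to 1 on leaving out a library. Over all genes, 15, 2 and 6 passed in ONX-0914 against control, DMSO against control and ONX-0914 against DMSO with edgeR, 388, 9 and 245 with DESeq2, and 578, 11 and 297 without the filter. Scaling by total counts moved the median Log2FC of all genes in ONX-0914 against control from 0.05 to 0.19, and the genes that passed from 5 higher and 10 lower to 8 higher and 6 lower. The sign of Gnas reversed with total counts (0.0949 against control, 0.102 against DMSO), without the filter (0.0068 against DMSO) and with at least 10 counts in every library (0.0107 against DMSO), and that of Adcy1 in ONX-0914 against DMSO with limma voom (−0.17). The replicate number as a block reversed Gnas in DMSO against control (0.18), gave 0 members in every comparison and 1 gene in all in ONX-0914 against control, and raised the FDR of Adcy2 to 0.265, while same-numbered libraries did not deviate together (correlations of −0.0963 to 0.0640), so the numbers were not taken to pair the libraries. Leaving out a library gave Log2FC ranges across 0 in ONX-0914 against control for Adcy1 (−1.48 to 0.24), Adcy5 (−0.0781 to 1.197), Adcy9 (−1.45 to 0.0215), Gnas (−0.73 to 0.46) and Gnal (−0.0438 to 1.15). In DMSO against control this held for Adcy6 (−0.57 to 0.0616), Adcy8 (−0.14 to 0.48), Gnas (−0.0656 to 0.0560) and Gnal (−0.46 to 0.16), and in ONX-0914 against DMSO for Adcy1 (−0.96 to 0.76), Adcy3 (−0.0675 to 0.110), Adcy8 (−0.0721 to 1.30), Adcy9 (−1.15 to 0.33) and Gnas (−0.72 to 0.47). The cause was not tested. The signs of the other member values held under every alternative run. With 2 or 3 libraries a group, and 5 to 94 counts for Adcy7, differences may have been missed. No limit of detection was computed.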
